A study of Homo sapiens with 12 samples.

Results

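The transition from G1 into S phase is driven by the D-type and E-type cyclins and the kinases that they switch on. Cyclins D1, D2 and D3 (CCND1, CCND2, CCND3) bind CDK4 and CDK6 and start the phosphorylation of the retinoblastoma protein, which releases E2F transcription factors. Cyclins E1 and E2 (CCNE1, CCNE2) then bind CDK2, and the phosphatase CDC25A removes the inhibitory phosphates from the kinase. The CDK inhibitor p21, encoded by CDKN1A, is a direct transcriptional target of p53 and holds these kinases in check.

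The transcripts of these 9 genes were taken by their symbols from the 36482 rows of the gene count table after rows sharing a symbol were added, and each member rested on 1 Ensembl gene. RNA-seq was measured in 12 libraries of 2 human cancer cell lines. TOV-112D, an ovarian adenocarcinoma line that carries p53 R175H, had been exposed for 3 h to DMSO (the vehicle), UCI-1001 or UCI-1014, with 2 libraries each. Saos-2, an osteosarcoma line without p53, was represented by 3 libraries of the p53-null cells and 3 of cells expressing wild-type p53 (p53-WT), and the labels give 16 h of induction for both. The wild-type protein came from a doxycycline-inducible construct in engineered cells, and whether the p53-null cells also received doxycycline is not given in the sources used here. UCI-1001 and UCI-1014 are related small molecules in which a methoxy group in UCI-1014 stands in place of the nitro group of UCI-1001. The sources used here do not give how much UCI-1014 these cells received, so doses cannot be set against each other.

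The summed gene counts lay between 17762027 and 24629558 per library. In the libraries labelled Saos-2, MDM2, the ubiquitin ligase that p53 induces, averaged 54.1 TPM (a share of all transcripts, corrected for transcript length) in p53-null and 1043 TPM in p53-WT cells. As sums, both lists of origin markers ran against the labels, while single markers were split, some with and some against them. The osteoblast list summed to between 27.7 and 29.4 TPM in the DMSO libraries labelled TOV-112D. In the p53-null libraries labelled Saos-2, 3 of 7 osteoblast markers reached 1 TPM and the list summed to between 20.4 and 20.8 TPM. There SP7 was listed at 0, ALPL averaged 0.0450 TPM and IBSP 0.0446 TPM, whereas the epithelial keratins KRT18 and KRT8 averaged 556 and 179 TPM. With the label, SPP1 averaged 16.1 TPM there and 0.0669 TPM in the DMSO libraries, and EPCAM was listed at 0 there and averaged 2.81 TPM with DMSO. RUNX2 averaged 3.11 and 2.86 TPM in these groups, and CDH1 0.0349 and 1.199 TPM. Against the label, COL1A1 averaged 1.25 and 23.1 TPM in these groups, PAX8 2.40 and 0.0117 TPM, and WT1 7.74 and 1.11 TPM. In the DMSO libraries labelled TOV-112D, 3 of 8 ovarian or epithelial markers reached 1 TPM, and the list summed to between 3.76 and 7.20 TPM with KRT18 listed at 0. That list summed to between 701 and 781 TPM in the p53-null libraries. Blood and vessel markers summed to at most 2.61 TPM in any library. The part of cell identity in the results was not tested. Replicate 1 of both lines labelled Saos-2 stood apart from its group: the chi-square per degree of freedom against the other replicates was 23.0 to 38.4, compared with 3.07 to 3.79 among the remaining pairs, and in TOV-112D it was 2.08 to 3.73. Nothing in the labels says that replicates were separate cultures, so p-values measure the spread between these libraries, which may be technical.

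CDK4 was the most abundant member per transcript length in all 5 groups, and CCND2 the least. CDK4 averaged 340 ± 15.1 TPM (SD, n = 3) in p53-null, 134 ± 7.21 TPM (SD, n = 3) in p53-WT, and between 325 and 344 TPM in the TOV-112D groups. On the CPM scale (counts scaled to library size with TMM factors, not to length), which favours long transcripts, CDK4 was highest in 4 of the 5 groups, since CDK6 averaged 136 and CDK4 131 CPM in p53-WT cells. In the DMSO libraries the order after CDK4 was CCND1 (128 TPM), CDK2 (125 TPM), CCND3 (56.0 TPM), CDK6 (32.0 TPM), CCNE1 (30.9 TPM), CDC25A (27.5 TPM) and CCNE2 (16.2 TPM). The libraries of CDK6 and CCNE1, and of CCNE1 and CDC25A, overlapped in this order. CCND1 and CDK2 were nearly level, with the lower CCND1 library and the higher CDK2 library both at 125.8 TPM. In p53-null cells CDK2 (111 TPM) and CCND3 (72.4 TPM) came next, followed by CCND1 (53.3 TPM), CDC25A (36.5 TPM), CDK6 (24.8 TPM), CCNE2 (23.4 TPM) and CCNE1 (15.8 TPM). Here CCND1 overlapped with CDC25A, and CDK6 with CCNE2. In p53-WT cells CCND3 (61.2 TPM) and CCND1 (35.7 TPM) held the next places, then CDK2 (18.7 TPM), CDK6 (16.8 TPM), CCNE1 (5.54 TPM), CDC25A (4.47 TPM) and CCNE2 (1.59 TPM), with CDK2 and CDK6, and CCNE1 and CDC25A, overlapping. With UCI-1001 the order after CDK4 was CDK2 (131 TPM), CCND1 (105 TPM), CCND3 (56.5 TPM), CDK6 (30.3 TPM), CDC25A (29.3 TPM), CCNE1 (25.1 TPM) and CCNE2 (14.5 TPM), and CDK6 overlapped with CDC25A. With UCI-1014 it was CDK2 (119 TPM), CCND1 (96.7 TPM), CCND3 (58.6 TPM), CDK6 (29.5 TPM), CDC25A (21.9 TPM), CCNE1 (18.4 TPM) and CCNE2 (10.9 TPM), with no overlap between neighbours. These orders rest on TPM summed over all transcripts of a gene, short ones included. On the main coding transcript alone, CCND1 (78.3 TPM) stood above CDK2 (75.6 TPM) with UCI-1014, but below it with UCI-1001 (80.9 and 84.2 TPM). In p53-WT cells CDK4 (55.1 TPM) was then close to CCND3 (54.2 TPM).

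**Figure D1:**
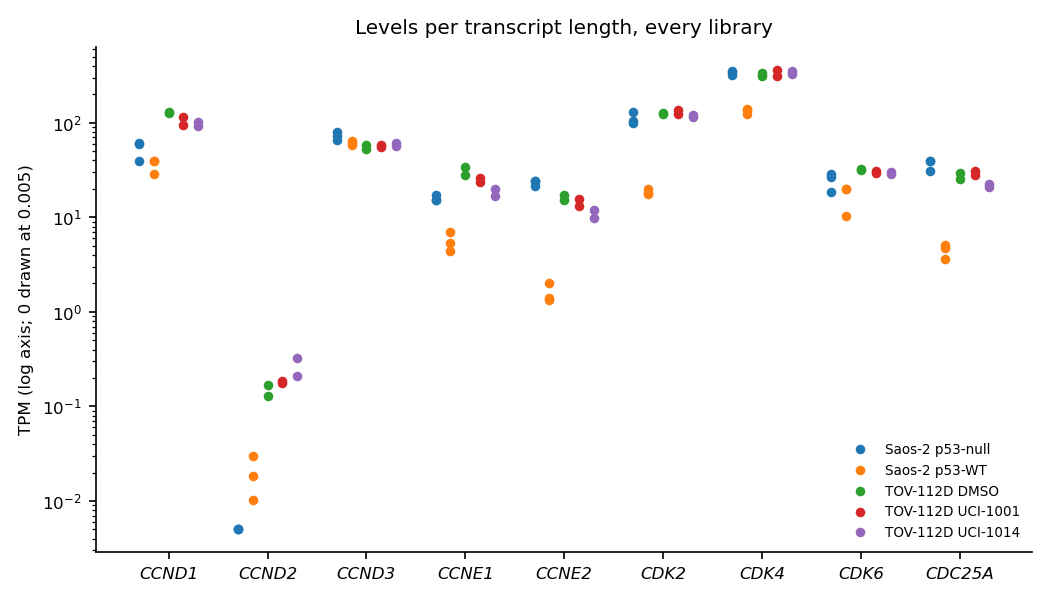
Level of each G1 cyclin, kinase and CDC25A in every library, in TPM on a log axis, with one colour per group; a value of 0 is drawn at 0.005. CDK4 sits highest in each group, CCND2 lies below 1 TPM everywhere, and the p53-WT points of CCNE1, CCNE2, CDK2, CDK4 and CDC25A lie below those of the p53-null cells.

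The cell lines differed in which D-type cyclin carried most of the family's transcripts. CCND1 made up 69.5% ± 0.996 (SD, n = 2) of the cyclin D TPM in DMSO-treated TOV-112D cells and 42.1% ± 4.17 (SD, n = 3) in p53-null cells, where CCND3 held 57.9%. CCND2 (chr12:4269771-4305353, plus strand, GENCODE on GRCh38) was close to absent: it had 10 and 13 counts in the DMSO libraries, 15 and 14 with UCI-1001, 14 and 26 with UCI-1014, none in the p53-null libraries, and 4, 1 and 2 in p53-WT. A count of 0 allows up to 3 counts in a library, counting error only, so no fold is given for CCND2 between p53-WT and p53-null cells. Of the E-type cyclins, CCNE1 held 65.4% ± 1.34 (SD, n = 2) of the cyclin E TPM with DMSO and 40.4% ± 1.66 (SD, n = 3) in p53-null cells, and CCNE2 (chr8:94879770-94896678, minus strand, GRCh38) held the rest.

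The comparison of p53-WT with p53-null cells asked which transcripts change when wild-type p53 is present. No member rose, 6 fell and 2 did not pass the test (edgeR quasi-likelihood test, Benjamini-Hochberg adjusted p under 0.05), among the 8 members that passed the filter on low counts. Of the 14272 genes tested, 33.5% rose and 33% fell. Overlap between groups is given below as a description only, since its share over all genes is not given here. No member rose at an unadjusted p under 0.05 either, nor with DESeq2 on the same libraries. CCND2 entered without the filter on low counts, and was then called higher from the counts given above. The E-type cyclin CCNE2, CDC25A and CDK2 showed the strongest falls. The members' median log2 fold change was -1.20, beside -0.013 over all genes tested, and 50.4% of all calls were rises (38.7% on the TPM scale, where the median of all genes was -0.16). In bulk RNA, fewer cells in G1 to S transit and less RNA per cell cannot be told apart.

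**Figure D2:**
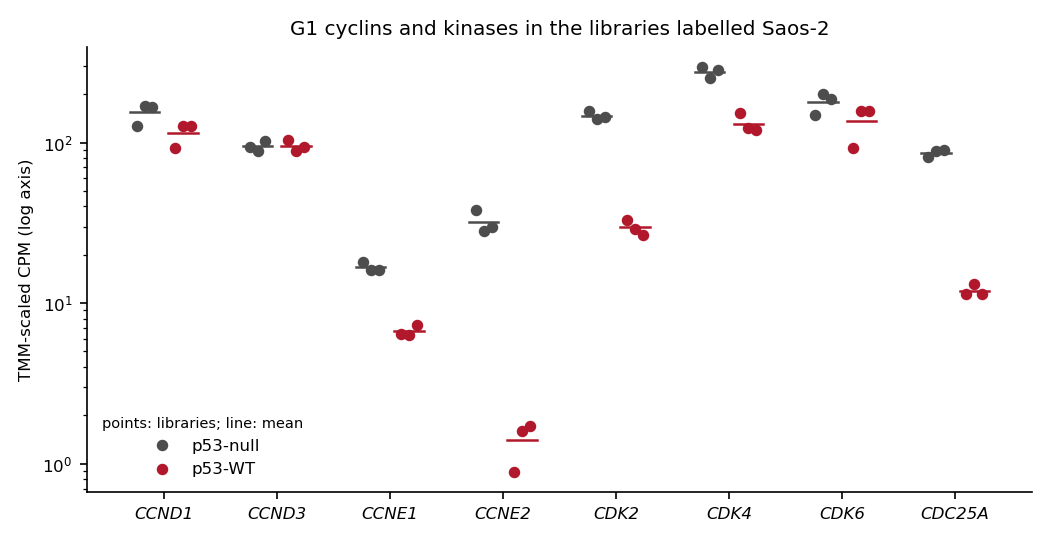
TMM-scaled CPM of the 8 tested members in each of the 3 p53-null and 3 p53-WT libraries labelled Saos-2, on a log axis; points are libraries and lines group means. CCNE1, CCNE2, CDK2, CDK4 and CDC25A are separated, with no overlap, while CCND1, CCND3 and CDK6 overlap.

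Cyclin E2 fell furthest. CCNE2 gave 38.1, 28.1 and 29.6 CPM in the p53-null libraries and 0.886, 1.59 and 1.72 CPM in the p53-WT libraries. Every p53-WT library lay far below the lowest p53-null library. The fall was 22.8-fold (log2 fold change -4.51, SE 0.22, edgeR adjusted p = 1.7e-08), and it ranked 5 from the lowest among the 14272 genes. On the TPM scale CCNE2 averaged 23.4 TPM in p53-null and 1.59 TPM in p53-WT cells, and limma on log2(TPM + 1) gave a smaller log2 fold change of -3.24 (adjusted p = 1.2e-05). The added 1 is not small beside the p53-WT level, which shrinks that value. Its paralog CCNE1 (chr19:29811991-29824312, plus strand, GRCh38) gave 18.1, 16.1 and 16.1 CPM in p53-null and 6.47, 6.32 and 7.36 CPM in p53-WT cells. These groups did not overlap, and the fall was 2.49-fold (log2 fold change -1.32, SE 0.13, edgeR adjusted p = 4.1e-06). The balance of the E-type cyclins turned over: on the TPM scale CCNE1 was 0.625, 0.700 and 0.709 times CCNE2 in the p53-null libraries and 3.26, 3.84 and 3.41 times CCNE2 in the p53-WT libraries. The ratio was below 1 in each p53-null library and above 3 in each p53-WT library.

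CDC25A, the phosphatase that activates CDK2, lies at chr3:48157146-48188417 on the minus strand. It gave 81.5, 88.0 and 89.3 CPM in p53-null and 11.4, 13.1 and 11.4 CPM in p53-WT cells. Without overlap between groups, it fell 7.21-fold (log2 fold change -2.85, SE 0.11, edgeR adjusted p = 4.5e-09). To show what precedes the start site of a member of this group, the 250 bases upstream of CDC25A (chr3:48188418-48188667, minus strand, RefSeq on GRCh38.p14) are printed 5′ to 3′. Capitals mark an E2F-type match (TTTGGCGC, 44 to 37 bases before the start), CCAAT on the opposite strand, and the GC box GGGCGG on either strand, none of which overlap each other.
CDC25A: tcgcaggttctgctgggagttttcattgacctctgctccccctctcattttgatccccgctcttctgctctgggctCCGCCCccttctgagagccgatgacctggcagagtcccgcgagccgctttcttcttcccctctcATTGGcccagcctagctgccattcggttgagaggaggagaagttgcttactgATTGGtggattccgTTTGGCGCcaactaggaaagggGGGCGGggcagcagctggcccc
The RefSeq table held windows for 5 members (CDC25A, CCND3, CDK4, CDK6 and CCNE1). The form TTTNNCGC, with G or C at both N, was present in 1 of the 8 upstream windows of these genes (CDC25A) and in 2.79% of all 35116 windows, read on both strands. CCAAT was present in 3 of the 8 and in 32.0% of all windows, the GC box in 6 and in 42.6%, and the antioxidant response form TGACNNNGC in 3 and in 10.9%. The form GAANNTTC was present in 1 of the 8 and in 5.78% of all windows. None of the 8 held TTTGAA (13.3% of all windows), the p53 half-site (5.57%), TGANTCA (6.57%) or TGACGTNA (2.67%). Among the 8 windows, CCND3 and CDK6 had several each. A CCND3 window lay wholly in annotated exons (250 of 250 bases), and the CDK4 window had 137 of 250 bases in exons. Such matches describe letters only and are not evidence of binding.

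The kinases fell to different extents. CDK2 (chr12:55966781-55972789, plus strand), the partner of cyclins E and A, gave 157, 139 and 143 CPM in p53-null and 33.1, 29.1 and 26.6 CPM in p53-WT cells. It was lower in all p53-WT libraries, by 4.95-fold (log2 fold change -2.31, SE 0.12, edgeR adjusted p = 2.6e-08). CDK4 (chr12:57747727-57756013, minus strand), a partner of D-type cyclins, gave 294, 252 and 281 CPM and then 152, 123 and 119 CPM. The groups did not overlap and the fall was 2.10-fold (log2 fold change -1.07, SE 0.12, edgeR adjusted p = 1.5e-05). CDK6 (chr7:92604921-92836573, minus strand), the other partner of D-type cyclins, gave 149, 201 and 187 CPM in p53-null and 92.1, 158 and 157 CPM in p53-WT cells. Replicate 1 was the lowest library of each group and the groups overlapped. CDK6 did not pass the test (log2 fold change -0.40, SE 0.19, edgeR adjusted p = 0.090). Without replicate 1 of both lines it fell, by 0.30 on the log2 scale (edgeR adjusted p = 3.1e-04), and it also passed without p53-WT replicate 3 (edgeR adjusted p = 0.049), with the replicate number as a block (0.0061), without the filter on low counts (0.033) and with DESeq2 on all 12 libraries (0.038).

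The D-type cyclins stood closer together in the p53 groups. CCND1 (chr11:69641156-69654474, plus strand) gave 126, 170 and 167 CPM in p53-null and 92.8, 127 and 126 CPM in p53-WT cells. Replicate 1 was again the lowest of each group, and the highest p53-WT library overlapped with the lowest p53-null library. The fall of 1.34-fold passed the test (log2 fold change -0.42, SE 0.15, edgeR adjusted p = 0.030), but not without p53-null replicate 2 (adjusted p = 0.12), without p53-null replicate 3 (adjusted p = 0.11) or without p53-WT replicate 1 (adjusted p = 0.079), each by edgeR, nor with limma on TPM (adjusted p = 0.054). CCND3 (chr6:41934934-42050357, minus strand) gave 94.3, 88.6 and 102 CPM in p53-null and 104, 88.0 and 93.2 CPM in p53-WT cells. These overlapped, and the difference did not pass the test (edgeR adjusted p = 0.99, 95% interval of the log2 fold change -0.24 to 0.24). The sum of D-type cyclins divided by that of E-type cyclins, on the TPM scale, was 2.67, 3.21 and 3.80 in the p53-null and 15.3, 14.9 and 11.6 in the p53-WT libraries. All p53-WT libraries stood above all p53-null libraries.

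Genes around the G1 machinery moved in the same libraries. Of 7 CDK inhibitors, 2 rose, 2 fell and 3 did not pass the test, with a median log2 fold change of 4.7e-05. CDKN1A gave 79.2, 56.9 and 58.1 CPM in p53-null and 9039, 7922 and 8047 CPM in p53-WT cells (log2 fold change 7.01). CDKN2B, an inhibitor of CDK4 and CDK6, rose by 1.29 on the log2 scale, CDKN2C fell by 2.25 and CDKN2A fell by 0.28. Of 13 RB and E2F genes, 8 fell, among them E2F2 (-3.55), E2F1 (-3.39), E2F8 (-2.94) and RBL1 (-2.22), and 3 rose, with a median log2 fold change of -0.94. RB1, which encodes the retinoblastoma protein and is known to be truncated in Saos-2, gave 83.4, 88.7 and 81.8 CPM in p53-null and 148, 248 and 259 CPM in p53-WT cells, without overlap (log2 fold change 1.37, SE 0.18, edgeR adjusted p = 5.4e-05), and gene counts do not show a truncation. Of 18 S phase targets of E2F, 16 fell and 2 rose, with a median of -2.35, and CDC6 (-3.77), CCNA2 (-3.71), MCM2 (-3.42) and RRM2 (-3.24) were among those that fell. Of 17 genes for CDK activation and cyclin turnover, 11 fell, including the phosphatases CDC25C (-3.21) and CDC25B (-2.13), the kinase PKMYT1 (-2.15) and CKS1B (-2.04), and 4 rose, with a median of -0.43. All 10 mitotic genes fell, with a median of -3.13, among them MKI67 (-3.95), CENPF (-3.61), PLK1 (-3.53) and BUB1 (-3.24). Among 12 regulators upstream of cyclin D, 4 rose, such as STAT3 (2.03) and JUNB (1.36), and 6 fell, such as MYC (-1.55) and ETS2 (-1.48), with a median of -0.41. The part of proliferation, read from the mitotic list, in the members' falls was not tested.

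In TOV-112D cells the question was whether a compound reported to act on mutant p53 changes transcripts within 3 h. With UCI-1001, 3 members fell, none rose and 6 did not pass the test, of 9 tested (edgeR quasi-likelihood test, Benjamini-Hochberg adjusted p under 0.05). Among all 14174 genes tested, 9.39% rose and 6.36% fell. No member rose at an unadjusted p under 0.05 in this fit, nor with DESeq2, but 1 did so with RLE in place of TMM factors and 1 in a fit of the 2 groups only. With UCI-1014, 5 members fell, 1 rose and 3 did not pass the test, beside 23.4% of all genes that fell and 23.7% that rose. The 3 members lower with UCI-1001 were CCND1, CCNE1 and CCNE2, and with UCI-1014 these fell together with CDC25A and CDK6, while CDK4 rose. Both comparisons share the DMSO libraries, so they are given side by side. The members' median log2 fold change was -0.081 with UCI-1001, beside 0.0016 over all genes, and -0.12 with UCI-1014, beside -0.016. Rises were 59.6% of all calls with UCI-1001 (88.7% with limma on TPM). Mitochondrially encoded genes held 4.79% to 5.28% of the counts in the DMSO libraries, 3.79% to 3.86% with UCI-1001 and 3.18% to 3.57% with UCI-1014, and their part in the results was not tested.

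**Figure D3:**
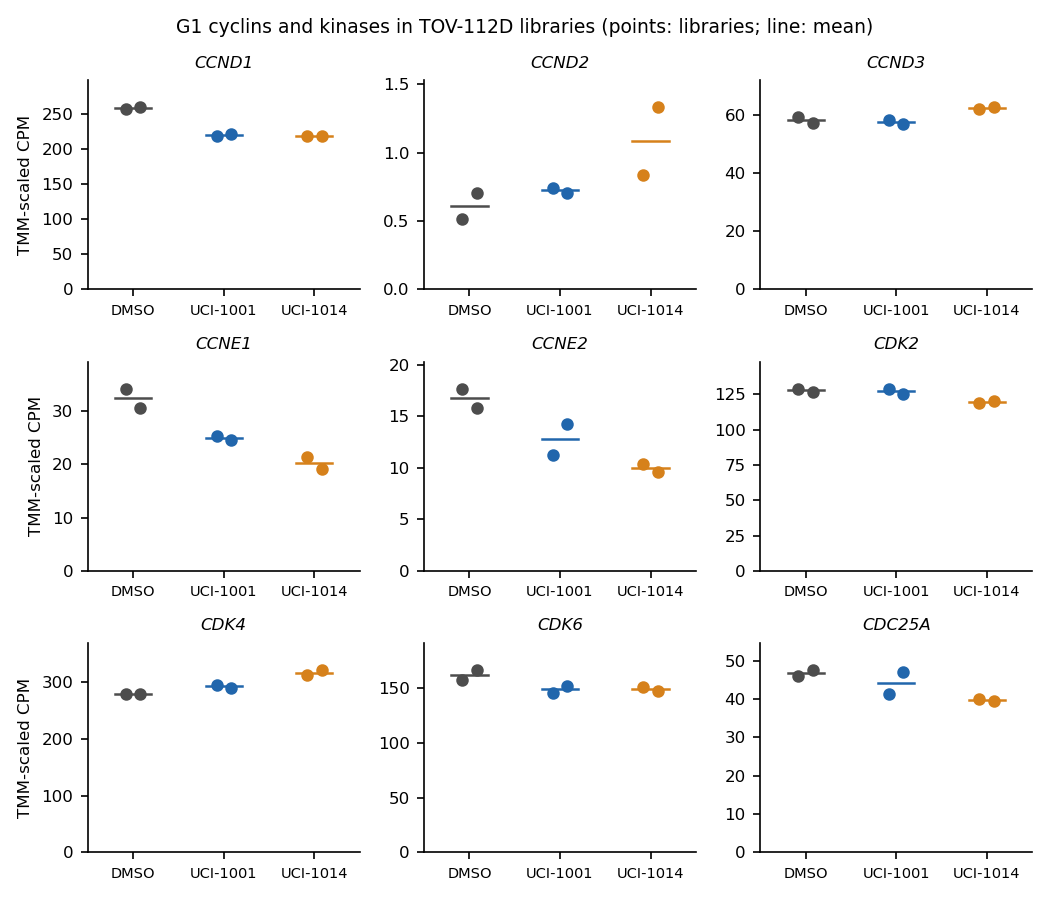
TMM-scaled CPM of each member in the 2 DMSO, 2 UCI-1001 and 2 UCI-1014 libraries of TOV-112D cells, with axes from 0; points are libraries and lines group means. CCNE1 and CCNE2 step down from DMSO to UCI-1001 to UCI-1014, CCND1 is lower with either compound, and CDK4 is highest with UCI-1014.

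The E-type cyclins fell furthest. CCNE1 gave 34.2 and 30.6 CPM with DMSO, 25.3 and 24.6 with UCI-1001, and 21.4 and 19.1 with UCI-1014. Each group lay below the one before, without overlap. With 2 libraries a group, uncalled members were separated from DMSO too: CCND2, CDK4 and CDK6 with UCI-1001, and CCND2, CCND3 and CDK2 with UCI-1014. The fall of CCNE1 was 1.30-fold with UCI-1001 (log2 fold change -0.38, SE 0.082, edgeR adjusted p = 0.0056) and 1.61-fold with UCI-1014 (log2 fold change -0.69, SE 0.085, edgeR adjusted p = 1.2e-05). Its UCI-1001 call was lost without DMSO replicate 1. CCNE2 gave 17.7 and 15.8 CPM with DMSO, 11.3 and 14.2 with UCI-1001, and 10.3 and 9.62 with UCI-1014. It was lower in all treated libraries than in DMSO. The fall was 1.31-fold with UCI-1001 (log2 fold change -0.39, SE 0.12, edgeR adjusted p = 0.032) and 1.68-fold with UCI-1014 (log2 fold change -0.75, SE 0.12, edgeR adjusted p = 1.4e-04). The UCI-1001 call of CCNE2 was lost without DMSO replicate 1 (edgeR adjusted p = 0.26), without DMSO replicate 2 (0.073) or without UCI-1001 replicate 1 (0.25), and with DESeq2 (0.16).

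Among D-type cyclins, CCND1 gave 257 and 259 CPM with DMSO, 219 and 221 with UCI-1001, and 218 and 218 with UCI-1014. The treated libraries lay close together below DMSO. CCND1 fell 1.17-fold with UCI-1001 (log2 fold change -0.23, SE 0.036, edgeR adjusted p = 5.2e-04) and 1.18-fold with UCI-1014 (log2 fold change -0.24, SE 0.036, edgeR adjusted p = 6.0e-05). CCND3 gave 59.4 and 57.1 CPM with DMSO, 58.2 and 56.9 with UCI-1001, and 62.0 and 62.6 with UCI-1014. The UCI-1014 libraries were the highest, but neither difference passed the test (edgeR adjusted p = 0.88 and 0.16). CCND2, at most 1.33 CPM in any library, did not pass either (edgeR adjusted p = 0.78 and 0.13).

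The kinases did not move together. CDK4 gave 279 and 279 CPM with DMSO, 296 and 291 with UCI-1001, and 312 and 321 with UCI-1014. The order of the groups was the reverse of that for the E-type cyclins, and the rise passed the test with UCI-1014 (1.14-fold, log2 fold change 0.18, SE 0.036, edgeR adjusted p = 6.6e-04) but not with UCI-1001 (edgeR adjusted p = 0.20). The UCI-1014 call of CDK4 was lost with limma on TPM and with DESeq2 on all 12 libraries. There no member rose, even at an unadjusted p under 0.05. In TPM the CDK4 libraries overlapped, at 339 and 312 TPM with DMSO and 331 and 357 TPM with UCI-1014. CDK6 gave 157 and 166 CPM with DMSO, 146 and 152 with UCI-1001, and 151 and 148 with UCI-1014. Treated libraries were lower by similar amounts: the log2 fold change was -0.12 with each compound, with an edgeR adjusted p of 0.079 for UCI-1001 and 0.042 for UCI-1014. The UCI-1014 call of CDK6 was lost without any single library, with an edgeR adjusted p from 0.064 to 0.34. CDK2 gave 129 and 127 CPM with DMSO, 129 and 125 with UCI-1001, and 119 and 120 with UCI-1014, and neither difference passed (edgeR adjusted p = 0.92 and 0.075). CDC25A gave 46.0 and 47.5 CPM with DMSO, 41.4 and 47.0 with UCI-1001, and 40.1 and 39.7 with UCI-1014. The higher UCI-1001 library lay within the DMSO range, and the lower lay between the UCI-1014 and DMSO ranges. With UCI-1014 CDC25A fell 1.17-fold (log2 fold change -0.23, SE 0.070, edgeR adjusted p = 0.015), and this call was lost without either DMSO or either UCI-1014 library, with an edgeR adjusted p from 0.052 to 0.10.

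**Figure D4:**
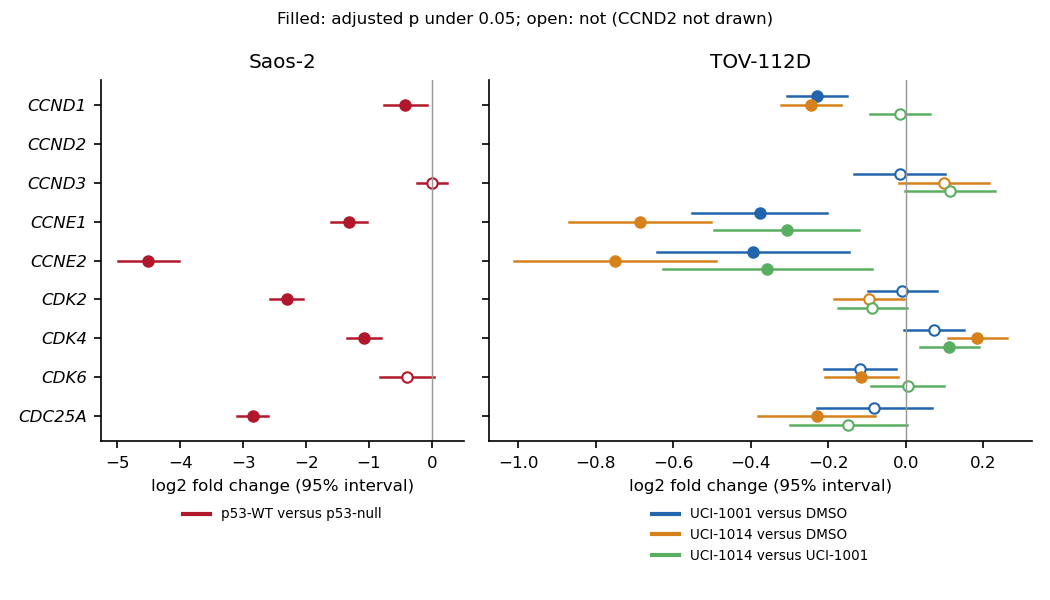
Log2 fold change of each member with its 95% interval from edgeR, for p53-WT against p53-null on the left and for the 3 TOV-112D comparisons on the right, where the axis is narrower; filled points passed an adjusted p of 0.05. CCNE2 reaches -4.51 with p53-WT and -0.75 with UCI-1014.

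Set against each other at 3 h, UCI-1014 and UCI-1001 differed in 3 members, as the single pair of compounds compared. CCNE1 (log2 fold change -0.31, SE 0.088, edgeR adjusted p = 0.016) and CCNE2 (-0.36, SE 0.13, adjusted p = 0.044) were lower with UCI-1014, and CDK4 was higher (0.11, SE 0.036, adjusted p = 0.029). Among all genes tested, 13.9% were lower and 17.2% higher. None of these 3 calls held without UCI-1014 replicate 2, where the edgeR adjusted p was 0.15 for CCNE1, 0.20 for CCNE2 and 0.078 for CDK4, and 1 member passed at an unadjusted p under 0.05. The CCNE1 call was also lost without UCI-1001 replicate 1 (edgeR adjusted p = 0.085). The CCNE2 call was also lost without DMSO replicate 1 (0.067), DMSO replicate 2 (0.059), UCI-1001 replicate 2 (0.42) or UCI-1014 replicate 1 (0.085), as edgeR adjusted p. The CDK4 call was also lost without DMSO replicate 2 (0.074) or UCI-1001 replicate 2 (0.079). CCND1 did not pass, with a 95% interval of the log2 fold change of -0.093 to 0.063, nor did CDK6 (-0.090 to 0.098), CDK2 (-0.18 to 0.0025), CDC25A (-0.30 to 0.0023), CCND3 (-0.0021 to 0.23) and CCND2 (-0.30 to 1.48). The compounds differ by the methoxy group named above, but a dose difference cannot be told apart from it.

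The inhibitor p21 moved in the opposite direction to CCNE1 in these libraries. CDKN1A gave 7.78 and 9.20 CPM with DMSO, 25.3 and 27.9 with UCI-1001, and 97.7 and 99.6 with UCI-1014 (log2 fold change 1.65 and 3.54). With UCI-1014, CDKN2B also rose (0.68) and CDKN1B, which encodes p27, fell (-0.47), and 4 of the 7 inhibitors did not pass. With UCI-1001 CDKN1A alone passed among the inhibitors. MDM2, the p53-induced gene given above for the libraries labelled Saos-2, did not pass with UCI-1001 (log2 fold change 0.0041, edgeR adjusted p = 0.97) or UCI-1014 (0.053, adjusted p = 0.35). Of 12 regulators upstream of cyclin D, 7 rose and none fell with UCI-1001, and 11 rose and 1 fell with UCI-1014, with medians of 0.29 and 0.71. JUN (3.64 and 4.12), FOS (3.25 and 3.39) and EGR1 (2.32 and 2.73) rose with both compounds, while cyclin D1 transcripts fell. Of 13 RB and E2F genes, 6 fell with UCI-1014, such as E2F8 (-0.55), E2F2 (-0.46) and TFDP1 (-0.32), and 2 rose, including E2F6 (0.64). With UCI-1001, E2F6 rose (0.22) and 12 did not pass. Of 18 S phase genes, 3 fell with UCI-1001 (CDT1, PCNA and RRM2), and 8 fell and 2 rose with UCI-1014, among them PCNA (-0.58), RRM2 (-0.33), CDT1 (-0.31) and CDC6 (0.37). Of 10 mitotic genes, 1 passed with UCI-1001 (AURKA, 0.20) and 5 with UCI-1014, where AURKA rose (0.54) and CENPF (-0.38) and MKI67 (-0.26) fell. In the list for CDK activation and cyclin turnover, CKS2, a small subunit bound by CDKs, rose by 0.97 and 2.04 and the inhibitory kinase WEE1 by 0.28 and 0.66, while FBXO31, an F-box protein, fell by 0.41 and 0.62. In that list of 17, 2 rose and 1 fell with UCI-1001, and 8 rose and 3 fell with UCI-1014. Apart from the list of regulators upstream of cyclin D, the medians lay between -0.022 and 0.075 with UCI-1001 and between -0.069 and 0.024 with UCI-1014. Between the compounds, CDKN1A was higher with UCI-1014 by 1.89 on the log2 scale, and 8 regulators upstream of cyclin D were higher and 1 lower of 12.

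TOV-112D cells with DMSO were also set beside p53-null cells, a comparison in which cell line, medium, p53 state and exposure differ together and cannot be told apart. Of the 9 members, 3 were higher, 4 were lower and 2 did not pass the test, beside 37.4% of the 15790 genes tested that were higher and 37.2% that were lower. CCND1 (log2 fold change 0.64, SE 0.14, edgeR adjusted p = 9.5e-04) and CCNE1 (0.85, SE 0.10, adjusted p = 4.1e-06) were higher in TOV-112D cells. CCND2, with no count in p53-null, was at least 3.97-fold higher when set against 3 counts in a library (edgeR adjusted p = 7.1e-05). Lower in TOV-112D cells were CCND3 (-0.81, SE 0.094, edgeR adjusted p = 2.5e-06), CCNE2 (-1.03, SE 0.17, adjusted p = 6.8e-05), CDC25A (-0.99, SE 0.094, adjusted p = 3.1e-07) and CDK2 (-0.30, SE 0.093, adjusted p = 0.0088). The CDK2 call was lost without DMSO replicate 2 (edgeR adjusted p = 0.065), and on the TPM scale its log2 difference was 0.18. CDK4 and CDK6 did not pass (edgeR adjusted p = 0.45 and 0.24), but without replicate 1 of both lines labelled Saos-2 CDK6 (-0.45, adjusted p = 1.6e-07) and CDK4 (-0.12, adjusted p = 0.029) were lower by edgeR, and CDK6 also passed without p53-WT replicate 1 (adjusted p = 0.012). On the TPM scale the CDK6 difference was 0.38, that of CCND1 1.27, of CCND3 -0.36, of CCNE2 -0.50 and of CDC25A -0.39. The members' median was -0.25, also with CCND2 at this bound, beside 0 over all genes, and rises were 50.2% of all calls (61.7% on the TPM scale).

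Around the members, 2 of 7 CDK inhibitors were higher in TOV-112D cells and 3 lower, CDKN1A among them (-3.03). Of 17 genes for CDK activation and cyclin turnover, 9 were lower, among them CCNH (-2.46) and CDK7 (-2.40), subunits of the CDK-activating kinase, and 7 were higher. Of 18 S phase targets of E2F, 9 were lower and 4 higher, with a median of -0.24.

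The cell lines also differed in the CCNE1 transcripts to which reads were assigned, in a description chosen after the values were seen. Reads had been assigned to a 2043-base version of the longer ENST00000262643. Its exons, codons and start site are given here from the 1954-base entry of GENCODE 44. This longer transcript (12 exons, 410 codons) took 80.6% of the CCNE1 TPM with DMSO (75.0% and 86.3% in the libraries), 73.4% with UCI-1001 and 82.2% with UCI-1014. It took 19.9% in p53-null and 18.8% in p53-WT cells. There ENST00000444983 (10 exons, 395 codons), whose first exon lies at chr19:29812654-29812776, took 53.2% (50.7% to 54.9%) and 56.2% (53.9% to 59.2%), against 0% with DMSO and at most 2.29% in any treated TOV-112D library. Its share was high in all libraries labelled Saos-2 and near 0 in all TOV-112D libraries, and it was alike in p53-null and p53-WT cells while the gene's level fell. This transcript starts at a later codon, 15 codons into the frame of the longer one. The 45 coding bases that it lacks (chr19:29812556-29812578 and, with the later start codon, chr19:29812689-29812713, GENCODE on GRCh38) are printed 5′ to 3′, with the start codons of the longer and the later form in capitals.
CCNE1: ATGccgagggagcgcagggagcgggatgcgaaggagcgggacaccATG
The 250 bases upstream of the longer transcript (chr19:29811741-29811990, plus strand, RefSeq on GRCh38.p14) are given with GC boxes on either strand in capitals, 7 in all, and held neither the E2F form nor CCAAT.
CCNE1: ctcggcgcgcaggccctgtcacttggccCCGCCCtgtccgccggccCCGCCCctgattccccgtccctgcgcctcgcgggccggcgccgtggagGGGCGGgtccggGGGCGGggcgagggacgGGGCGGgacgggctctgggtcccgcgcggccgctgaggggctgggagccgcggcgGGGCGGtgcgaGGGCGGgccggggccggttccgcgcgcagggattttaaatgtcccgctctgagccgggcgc

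**Figure D5:**
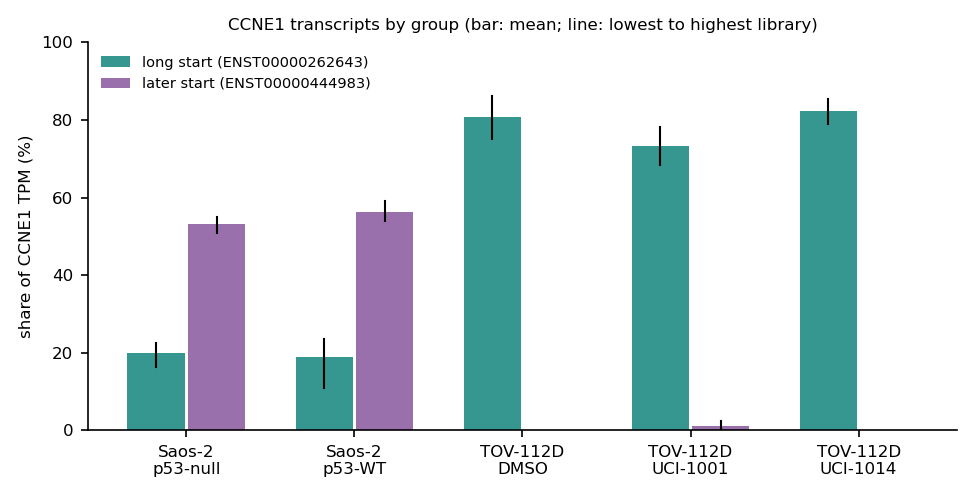
Share of the summed CCNE1 TPM, in percent, assigned to the transcript with the longer start (ENST00000262643) and to the one with the later start (ENST00000444983), by group; bars are means and lines run from the lowest to the highest library. The later start takes 53.2% and 56.2% in the groups labelled Saos-2 and 0% with DMSO.

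Genes whose pattern was most like each member were listed over the 12 libraries, each cell line centred on its own mean, among 11781 genes with at least 1 CPM in both lines. For CCNE1, CCNE2, CDK2, CDK4 and CDC25A these correlations rest mainly on the difference between p53-WT and p53-null libraries. That does not hold for CCND3, which did not differ between these groups (log2 fold change 0.0018), and less so for CCND1 and CDK6, whose groups overlapped. All the correlations are a description. CDK2 was closest to BIRC5 (r = 0.999), AURKB and XRCC3, CDC25A to FANCA (r = 0.999), FKBP5 and KIF4A, and CCNE2 was close to TFRC (r = 0.997) and SEH1L. CCNE1 was closest to SRSF2 (r = 0.989), ENSG00000276256 and ZFP30, and CDK4 to DDX39A (r = 0.993), ZFAND2B and SNRNP40. CCND1 was closest to CDK12 (r = 0.988), DOCK5 and PBX2, CDK6 was close to EIF5B (r = 0.982) and HNRNPA3, and CCND3 to NPAS1 (r = 0.856), WDR74 and PMM1. Among the members, CDC25A followed CDK2 (r = 0.99) and CCNE2 (r = 0.99), and CCND1 followed CDK6 (r = 0.94), whereas CCND3 had r from -0.45 to 0.21 with the others. For both CCND1 and CDK6, replicate 1 was the lowest library of each group labelled Saos-2. The part of replicate 1 in their r was not tested.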

How the data were processed

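RNA of 12 libraries had been extracted with RNeasy kits and sequenced by Novogene. The authors quantified reads on GRCh38 with kallisto 0.48.0 and deposited gene counts (estimated counts added per Ensembl gene and turned into whole numbers, not normalized), which they had tested with DESeq2 1.38.3. They also deposited estimated counts and TPM for 187626 transcripts per library; TPM is corrected for effective length and entered levels and 1 alternative. The estimated counts of the transcript files, as deposited, served to check the member sums and to describe transcripts. No read was aligned again.

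Of 40295 identifiers, 8043 had no symbol and stayed as rows of their own, which gave 36482 rows after rows with the same symbol were added. The counts were tested with edgeR 4.0.16 in R 4.3.3 (TMM, filterByExpr with a minimum count of 10, glmQLFit and glmQLFTest, Benjamini-Hochberg over all genes tested), in one fit of the 6 Saos-2 libraries, one of the 6 TOV-112D libraries and one of all 12 for the comparison across cell lines. CPM are TMM-scaled within the fit of each cell line. A gene was called at an adjusted p under 0.05. Alternatives used DESeq2 1.42.0 and limma 3.58.1 on log2(TPM + 1). Depth was 17762027 to 24629558 counts, at which 3 counts equal 0.122 to 0.169 CPM. The fit was tested on simulated counts with known changes. Coordinates are those of GENCODE 44, and promoter windows those of RefSeq (GRCh38.p14). Tables and plots were made in Python 3.11.15 (pandas 2.3.3, matplotlib 3.10.9).

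The members and the pathway lists were chosen with earlier results of these data known. The text names all 9 members and, from each list and comparison, at most 4 genes with the largest change among those called with at least 1 CPM and no overlap between groups, besides MDM2 and CDKN1A as checks of the p53 labels and RB1 as a feature of Saos-2. Genes most like a member are the 3 with the highest Pearson r of log2 CPM (prior count 2). Some genes that these rules name are not reported here.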

Additional observations from a re-analysis of the deposited data

How the results depend on the processing

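The calls for p53-WT against p53-null depended little on the processing: 5 to 7 of the 8 tested members were called when single libraries were left out, and 7 without replicate 1 of both lines, where CDK6 was added. The compound comparisons depended more on it. With UCI-1001 against DMSO, the 3 members called became 0 with DESeq2 on all 12 libraries (2 at an unadjusted p under 0.05), 0 with limma on TPM (1 unadjusted) and 0 beyond a log2 fold change of 1, and 1 to 3 with single libraries left out. With UCI-1014 against DMSO, 6 became 3 with DESeq2 on all 12 libraries, 3 with limma on TPM and 0 beyond a log2 fold change of 1, and 4 to 5 with single libraries left out. With UCI-1014 against UCI-1001, 3 became 1 with DESeq2, 0 with DESeq2 on all 12 libraries (1 unadjusted), 0 with limma on TPM (4 unadjusted), 1 in a fit of the 2 groups only and 0 beyond a log2 fold change of 1, and 0 to 2 with single libraries left out. Across cell lines, 7 became 2 beyond a log2 fold change of 1 and ranged from 6 to 8 with single libraries left out. The causes were not tested.

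Directions turned only for values near 0 or with TPM. For p53-WT, the log2 fold change of CCND3 was -0.011 without the filter, -0.24 with limma on TPM, -0.067 without replicate 1 of both lines, and -0.067 to 0.062 with single libraries left out. With UCI-1001, limma on TPM gave 0.013 for CCND3, 0.067 for CDK2 and 0.091 for CDC25A, and leaving out single libraries gave -0.045 to 0.0092, -0.028 to 0.0051 and -0.18 to 0.0074. For UCI-1014 against UCI-1001, CDK6 gave -0.026 with DESeq2 on all 12 libraries, -0.0048 without the filter, -0.038 with limma on TPM and -0.016 to 0.050 with single libraries left out, and CCND1 gave -0.016 to 0.0085. Across cell lines, limma on TPM turned CDK2 to 0.18 and CDK6 to 0.38. On the TPM scale the median of all genes shifted to -0.16 for p53-WT and to 0.19 across cell lines, and 38.7% and 61.7% of calls were rises there, beside 50.4% and 50.2%. With DESeq2 on all 12 libraries rises were 75.1% of calls with UCI-1001, beside 59.6%, and 66.8% between the compounds, beside 55.2%.

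Over all genes, calls with UCI-1001 numbered 2233, and 1285 with DESeq2, 434 with DESeq2 on all 12 libraries, 194 with limma on TPM, 185 beyond a log2 fold change of 1, and 952, 1022 and 1187 without DMSO replicate 1, DMSO replicate 2 and UCI-1001 replicate 2. With UCI-1014 they numbered 6675, and 3523, 4015 and 777 with DESeq2 on all 12 libraries, limma on TPM and beyond a log2 fold change of 1. Between the compounds they numbered 4409, and 2889, 1270, 1682 and 262 with DESeq2, DESeq2 on all 12 libraries, limma on TPM and beyond a log2 fold change of 1. Beyond a log2 fold change of 1, p53-WT gave 4354 of 9488 calls and the cell lines 6684 of 11774.

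Replicate numbers were shared by the groups, and nothing in the labels says whether same-numbered libraries share more than the number. Same-numbered libraries correlated by 0.14, 0.09 and 0.08 for p53-WT and p53-null, 0.06 for UCI-1001 and DMSO, -0.03 for UCI-1014 and DMSO, and -0.16 for UCI-1014 and UCI-1001. With 2 libraries a group, only the sign of such a value depends on the numbering, so it cannot decide this. Replicate 1 stood apart in both groups labelled Saos-2, and a shared batch was not tested. The replicate block gave 9814 called genes for p53-WT, beside 9488 without it. With the replicate block, 7 members were called for p53-WT (CDK6 added), 2 for UCI-1001, 5 for UCI-1014, 1 between the compounds and 7 across cell lines. Crossing the UCI-1014 numbers, chosen after seeing the data, gave 3 members and 4977 genes between the compounds.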

Other observations

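Other transcripts of the members also differed between the cell lines, in values singled out after they were seen. CDK4 transcript ENST00000551800 took 17.7% of the CDK4 TPM in p53-null cells (13.4% to 20.1% over the libraries) and 5.32% in p53-WT cells (2.69% to 7.81%), and it was listed at 0 in all 6 TOV-112D libraries. The long CDK6 transcript ENST00000265734 took 86.1% of the CDK6 TPM in p53-null cells and 64.0% with DMSO. Short transcripts rest on few reads: CDK2 transcript ENST00000554545 took between 1.49% and 24.7% of the CDK2 TPM among the 3 p53-null libraries. No transcript was tested.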
